A study of Mus musculus with 12 samples.

Results

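The genes described here belong to the 3 systems that keep ATP steady in a retinal rod, namely the creatine system, adenylate kinase and the AMP-activated protein kinase (AMPK). They are 8 of the 56748 genes in the deposited table, taken by gene name: Ckb, Ckmt1, Gatm, Gamt and Slc6a8 of the creatine system, the adenylate kinase Ak1, and Prkaa1 and Prkaa2, which encode the catalytic subunits of AMPK. Each name matched 1 row.

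The creatine system stores high-energy phosphate as phosphocreatine. A mitochondrial creatine kinase charges creatine where ATP is made, and a cytosolic creatine kinase returns the phosphate to ADP where ATP is spent. Adenylate kinase converts a pair of ADP molecules into ATP and AMP, and AMPK, a kinase that senses rising AMP, turns on pathways that make ATP and turns off pathways that consume it. Photoreceptors spend ATP heavily on ion pumping in the dark and on phototransduction, and mitochondria are packed in their inner segments, away from the outer segment.

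The study removed Pkm2, the isoform of pyruvate kinase that rods mainly use, from mouse rods, and 12 RNA libraries were measured, 3 in each of 4 groups. All mice were homozygous for RiboTag, an allele that tags a ribosomal protein with HA after Cre recombination, and all carried a rod Cre (i75-Rod-Cre, driven by the rhodopsin promoter), so every control animal also expressed Cre. Controls carried 1 floxed Pkm2 allele and 1 normal allele (Pkm2 Rodhet, which the study designates WT), and Pkm2 Rodko mice carried floxed alleles on both chromosomes. Retinas were taken after cycloheximide perfusion, and polyA RNA was sequenced from the total lysate (here "retina") and from HA-bound polyribosomes of the rods (here "rods"). The age is given as 2 weeks in the deposited design and as 2 months in the study's methods. Nothing in the labels says whether replicates came from separate animals, so each p-value measures the spread between these libraries, which may be technical.

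Libraries held between 13458890 and 22790074 reads assigned to genes. The deepest rod libraries were control replicate 2 and Rodko replicate 3, and results that change without them are given below. All levels below are reads scaled by TMM (a trimmed mean of M-values) over the 12 libraries, given as mean ± SD with n = 3 libraries. TMM centres a trimmed average of the gene differences between libraries, which need not be the median gene. Pkm, the targeted gene, whose row counts both its isoforms, stood at 66618, 65101 and 70318 scaled reads in the control rods and at 30486, 28578 and 28253 in the Rodko rods. In retina it stood at 26619, 28897 and 26666 in controls and at 16978, 17094 and 17531 in Rodko. Pkm fell by 1.20 on the log2 scale in rods (SE 0.0838) and by 0.65 in retina (SE 0.0742), with limma adjusted p = 5.36e-05 and 0.0219. The call was lost in rods without the 2 deepest rod libraries (limma adjusted p = 0.0532) and without limma's variance trend (0.0784). In retina limma lost it without the trend (0.277), with at least 10 reads in every library (0.0933), with the replicate block (0.157) and on leaving out any 1 library but control replicate 2 (0.0627 to 0.949), while the log2 difference stayed between −0.679 and −0.612 under all alternatives. All 12 rod markers were higher in rods than in retina (median log2 difference 1.91 in controls), and 62 of 64 markers of other cell types were lower. Cone markers were lower by the least, with a median of −0.70 in controls. The other non-rod lists had medians from −3.335 (horizontal cells) to −2.44 (pigment epithelium), and 1 bipolar marker was higher (0.89). Those 64 markers summed to 9.53 to 10.99 reads for every 1000 reads of rod markers in the control rods, 8.17 to 9.15 in the Rodko rods and 132 to 187 in retina, and no marker list was at 0 in rods.

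Which of these genes did rods hold at higher or lower levels than the whole retina? In control mice Ckmt1 and Ckb were higher in rods, by 3.09-fold and 1.61-fold, and Gatm, Slc6a8, Ak1 and Prkaa2 were lower. Gamt and Prkaa1 did not pass the test. The same 6 genes passed in the Rodko mice, in the same directions. Of all 25584 genes tested in controls, 23.5% were higher and 35.5% lower, against 2 and 4 of the 8 members, and in Rodko mice the shares were 23.9% and 35.1%. The TMM scale placed the median of all genes tested at −0.37 on the log2 scale in controls and −0.32 in Rodko. A value near 0 thus lay above most genes tested. Among the 12918 genes with at least 10 reads in every library the median was 0.238 in controls and 0.264 in Rodko. A value near 0 lay below most of those. Rod and retina libraries did not overlap for 6 of the 8 members in controls and 7 in Rodko, where 61.8% and 63% of all genes did not. Retina RNA itself comes largely from rods and was not pulled down on ribosomes, so cell type and ribosome binding cannot be told apart in this comparison. In bulk RNA, fewer cells of a type and less RNA per cell cannot be told apart either.

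The mitochondrial creatine kinase gene Ckmt1 (ENSMUSG00000000308, chromosome 2) charges the phosphocreatine store at the mitochondrion. It stood at 6027, 4568 and 5934 scaled reads in the control rods and at 1939, 1654 and 1730 in the control retina. The Rodko rods held 6190, 5188 and 5142 and the Rodko retina 1948, 1596 and 1824. Every rod library lay above every retina library in both genotypes. The log2 difference between rods and retina was 1.63 in controls (SE 0.114, limma adjusted p = 6.86e-09) and 1.62 in Rodko (SE 0.114, limma adjusted p = 5.94e-09). Ckmt1 was the 1 member whose higher level in rods passed the test under every common scale tried. Scaling by total reads in place of TMM gave 1.08 in controls and 1.04 in Rodko, and the deposited values as they stand gave 1.03 and 1.02. By identifier, 10 exon bases of Ckmt1 overlap Strc, a gene on the other strand that had 83 reads over all libraries against 38780 for Ckmt1.

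The cytosolic creatine kinase gene Ckb (ENSMUSG00000001270, chromosome 12), the brain-type enzyme that turns phosphocreatine back into ATP, was the most abundant member in each group. Its level was 21538, 17355 and 21987 scaled reads in the control rods against 12610, 11197 and 13932 in the control retina. In Rodko mice it was 22757, 19760 and 16135 in rods against 12921, 13719 and 13505 in retina. The rod libraries again lay above the retina libraries, with the lowest rod value in Rodko replicate 3. The log2 difference was 0.69 in controls (SE 0.121, limma adjusted p = 0.000145) and 0.53 in Rodko (SE 0.121, limma adjusted p = 0.00126). This call depended on the common scale. With total reads the difference was 0.137 in controls (limma adjusted p = 0.335) and −0.0518 in Rodko (limma adjusted p = 0.729). On that scale the median of all genes was −0.76 and −0.74, so Ckb still lay 0.90 above the median gene in controls and 0.69 above it in Rodko, beside 1.05 and 0.85 with TMM. With TMM it lay closer to, though above, the median of genes with at least 10 reads in every library (0.238 in controls, 0.264 in Rodko). The Ckb pseudogenes Ckb-ps1 and Ckb-ps2 had 1 and 0 reads in all.

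The promoters of these 2 creatine kinase genes are shown because both genes were higher in rods on the TMM scale. The sequences are from RefSeq (GRCm38.p6, a different build from the files), run from 250 bases before the start site to 50 after it, and are written 5′ to 3′ along the gene's strand. Capitals mark matches on either strand to 5 motifs, the TATA box TATAAA, the CCAAT box CCAAT, the GC box GGGCGG, and TAATCC and TGCTGA, short forms of the sites of the photoreceptor factors Crx and Nrl. A match on the other strand appears as its reverse complement. An entry was found for 7 of the 8 members, and Slc6a8 had none.
Ckb, chr12:111672289-111672588, minus strand: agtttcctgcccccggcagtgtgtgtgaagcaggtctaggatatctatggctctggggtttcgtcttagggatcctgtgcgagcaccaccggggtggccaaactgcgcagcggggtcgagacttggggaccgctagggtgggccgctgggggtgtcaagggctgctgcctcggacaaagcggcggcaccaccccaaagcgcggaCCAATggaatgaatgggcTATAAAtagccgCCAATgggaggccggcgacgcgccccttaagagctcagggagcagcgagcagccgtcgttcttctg
Ckmt1, chr2:121357526-121357825, plus strand: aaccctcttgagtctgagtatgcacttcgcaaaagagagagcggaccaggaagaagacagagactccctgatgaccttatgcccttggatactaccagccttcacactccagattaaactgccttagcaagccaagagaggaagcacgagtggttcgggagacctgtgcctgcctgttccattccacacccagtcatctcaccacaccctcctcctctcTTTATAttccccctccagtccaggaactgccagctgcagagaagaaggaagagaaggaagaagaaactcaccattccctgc
Ckmt1, chr2:121358360-121358659, plus strand: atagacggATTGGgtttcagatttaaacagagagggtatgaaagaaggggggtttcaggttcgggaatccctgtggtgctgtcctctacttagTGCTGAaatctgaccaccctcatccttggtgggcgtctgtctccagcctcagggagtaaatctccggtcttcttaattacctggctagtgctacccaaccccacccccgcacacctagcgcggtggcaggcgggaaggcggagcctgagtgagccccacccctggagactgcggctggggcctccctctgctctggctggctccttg
Ckb held TATAAA starting 28 bases before the start site, with CCAAT at 46 and 16 bases before it. The first Ckmt1 promoter held TATAAA on the other strand, 31 bases before its start, and the second held CCAAT on the other strand at 242 bases and TGCTGA at 157 bases before its start. No TAATCC or GGGCGG was found in these 3 windows, which says only that those letters are not there. Among 32851 RefSeq promoters of this length, 13.6% held TATAAA, 37.4% CCAAT, 35.7% GGGCGG, 7.06% TAATCC and 19.5% TGCTGA.

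**Figure D1:**
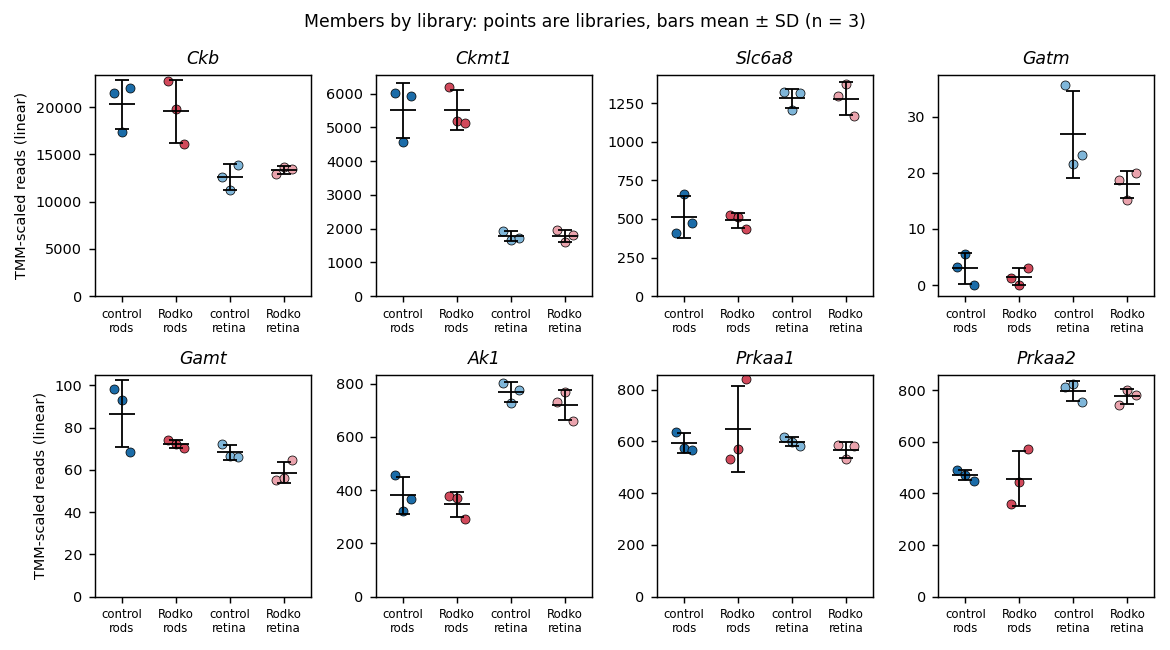
TMM-scaled reads (linear axis, a separate range for each gene) in the 12 libraries, by group. Points are libraries and bars the mean ± SD (n = 3). Ckmt1 stands between 4568 and 6190 in the 6 rod libraries and between 1596 and 1948 in the 6 retina libraries, and within rods and within retina the control and Rodko points overlap for all members but Gatm and Gamt in retina.

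Slc6a8 (ENSMUSG00000019558, chromosome X) encodes the plasma membrane transporter that carries creatine into cells. It stood at 406, 664 and 471 scaled reads in the control rods and at 1322, 1206 and 1312 in the control retina. The Rodko rods held 526, 515 and 434 against 1296, 1374 and 1166 in the Rodko retina. No rod library reached the lowest retina library, and the highest rod value was that of control replicate 2. The log2 difference was −1.35 in controls (SE 0.142, limma adjusted p = 7.27e-07) and −1.38 in Rodko (SE 0.142, limma adjusted p = 4.87e-07). It passed under every alternative, from −1.94 to −1.18 in controls and from −1.98 to −1.29 in Rodko. Relative to the median of all genes tested with TMM, Slc6a8 lay at −0.98 in controls and −1.06 in Rodko.

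Gatm (ENSMUSG00000027199, chromosome 2), which encodes the first enzyme of creatine synthesis, had 2, 6 and 0 reads in the control rods and 1, 0 and 3 in the Rodko rods. The retina libraries held 43, 24 and 32 reads in controls and 21, 20 and 21 in Rodko. Both genotypes thus had under 10 reads of Gatm in each rod library, and no rod library reached a retina library. After scaling, the 8 reads of control rods against 99 of control retina were 7.75-fold lower (95% interval 3.79 to 18.5, counting error only). In Rodko mice the 4 reads against 62 were 11.1-fold lower (4.12 to 42.0). The fitted log2 differences, on log2 of scaled reads + 1, were −3.16 (limma adjusted p = 0.000664) and −3.17 (limma adjusted p = 0.000631). Gatm passed under every alternative that gave it a value, from −4.4 to −2.36 in controls and from −4.56 to −2.64 in Rodko, with −2.36 without control rod replicate 3 and −2.64 without Rodko rod replicate 2, the rod libraries at 0. Beside them, the summed markers of Müller glia were 9071 to 14052 scaled reads in rods and 72843 to 90487 in retina, and those of pigment epithelium 298 to 1617 and 1541 to 10365. Their part in the Gatm level was not tested. In the control retina libraries Gatm stood at 35.7, 21.6 and 23.2 scaled reads, where the pigment epithelium markers summed to 6684, 1541 and 10365. In the Rodko retina libraries it stood at 18.7, 15.2 and 19.9, beside 6880, 8714 and 2998.

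Gamt (ENSMUSG00000020150, chromosome 10), for the enzyme of the second step, which adds the methyl group to make creatine, was at 98.2, 93.0 and 68.4 scaled reads in the control rods and 72.3, 66.6 and 66.0 in the control retina. The Rodko rods held 74.2, 72.0 and 70.4 and the Rodko retina 55.2, 56.3 and 64.4. Rods and retina overlapped in controls through control rod replicate 3, and did not in Rodko. The log2 difference was 0.32 in controls (SE 0.192, limma adjusted p = 0.163) and 0.30 in Rodko (SE 0.192, limma adjusted p = 0.196), with 95% intervals from −0.09 to 0.73 and from −0.11 to 0.71. Its sign depended on the scale, since total reads gave −0.222 and −0.278 (limma adjusted p = 0.342 and 0.237). Between 43 and 100 reads per library lay behind each Gamt value.

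Ak1 (ENSMUSG00000026817, chromosome 2) encodes the cytosolic adenylate kinase. Its level was 455, 320 and 366 scaled reads in the control rods and 803, 727 and 776 in the control retina. In Rodko mice it was 376, 369 and 293 in rods and 731, 768 and 660 in retina. Rods and retina did not overlap in either genotype. The log2 difference was −1.03 in controls (SE 0.130, limma adjusted p = 5.16e-06) and −1.06 in Rodko (SE 0.130, limma adjusted p = 3.32e-06), and it passed under every alternative, from −1.62 to −0.93 in controls and from −1.66 to −0.94 in Rodko. Relative to the median of all genes tested with TMM, Ak1 lay at −0.66 in controls and −0.74 in Rodko.

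The AMPK catalytic subunits, α1 and α2, are alternative forms of the kinase. Prkaa2 (ENSMUSG00000028518, chromosome 4), for α2, stood at 490, 473 and 450 scaled reads in the control rods and at 812, 827 and 753 in the control retina. The Rodko rods held 358, 444 and 571 against 745, 803 and 783 in the Rodko retina. All rod libraries lay below all retina libraries. The log2 difference was −0.76 in controls (SE 0.129, limma adjusted p = 0.000104) and −0.79 in Rodko (SE 0.129, limma adjusted p = 6.85e-05), and it passed under every alternative. Relative to the median of all genes tested with TMM, Prkaa2 lay at −0.39 in controls and −0.47 in Rodko. Of all genes tested, 41.3% had a lower log2 difference in controls and 40% in Rodko.

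Prkaa1 (ENSMUSG00000050697, chromosome 15), for α1, was at 637, 573 and 566 scaled reads in the control rods and at 617, 596 and 583 in the control retina. The Rodko rods held 532, 570 and 839 and the Rodko retina 584, 531 and 584. The groups overlapped in both genotypes, and the 839 of Rodko rod replicate 3 stood above the other 11 libraries. The log2 difference was −0.02 in controls (95% interval −0.30 to 0.27, limma adjusted p = 0.926) and 0.16 in Rodko (−0.12 to 0.45, limma adjusted p = 0.309). With total reads it was −0.567 in controls (limma adjusted p = 0.00155) and −0.42 in Rodko (limma adjusted p = 0.0121). Against the median of all genes tested Prkaa1 lay 0.35 higher in controls with TMM and 0.19 higher with total reads. It lay below the TMM median of the genes with at least 10 reads in every library (0.238 in controls).

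**Figure D2:**
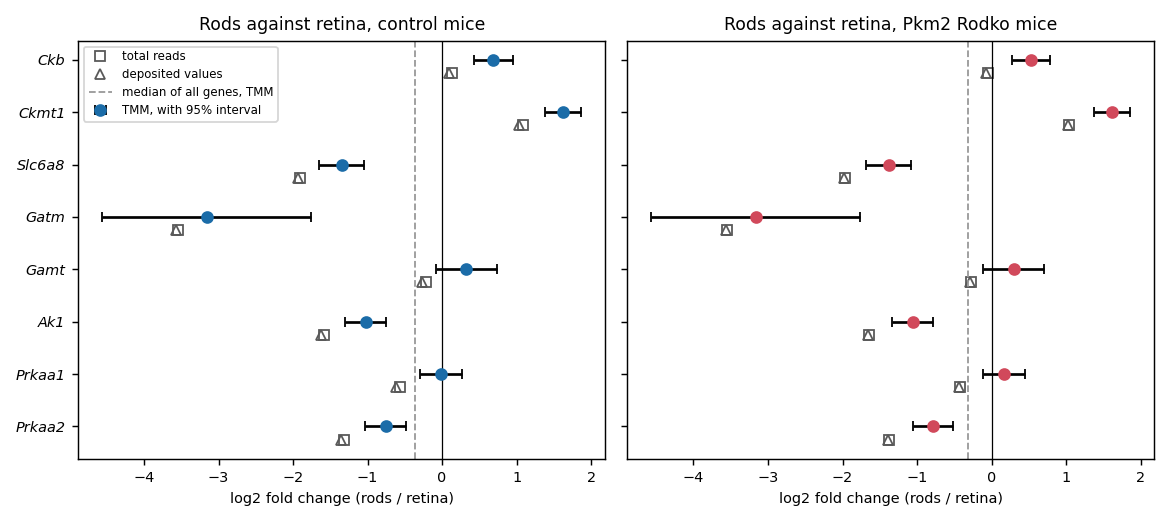
Log2 fold change between rods and retina for the 8 members in control mice (left) and Pkm2 Rodko mice (right). Filled points are the limma estimates on the TMM scale with 95% intervals, open squares and triangles the estimates with total reads and with the deposited values, and the dashed line the median of all genes with TMM (−0.37 and −0.32). Ckmt1 stands to the right of 0 and Gatm, Slc6a8, Ak1 and Prkaa2 to the left on all 3 scales, while Ckb, Gamt and Prkaa1 change sign or call between the scales.

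Ratios of 2 genes within a library need no common scale. Each ratio combines the differences between rods and retina given above for its 2 genes, so its tests are not separate evidence. These tests were not among the planned comparisons. Per kilobase of exon, the ratio of Ckmt1 to Ckb was 0.325, 0.305 and 0.313 in the control rods against 0.178, 0.171 and 0.144 in the control retina. In Rodko mice it was 0.315, 0.305 and 0.370 in rods against 0.175, 0.135 and 0.157 in retina. Mitochondrial creatine kinase mRNA thus stood higher relative to the cytosolic form in every rod library than in any retina library. The ratio was 1.92-fold higher in rods of controls and 2.13-fold higher in rods of Rodko mice, each with p = 0.1 by an exact two-sided permutation test of 3 against 3 libraries, the smallest that design allows. Over the 6 pairs of rod and retina libraries with the same genotype and number, which deviated together across genes, it was 2.02-fold higher, from 1.78 to 2.36 (higher in 6 of 6 pairs, exact two-sided sign-flip p = 0.03125, the smallest 6 pairs allow, and 0.03125 adjusted by Benjamini-Hochberg over the 2 ratios).

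The ratio of Prkaa1 to Prkaa2 per kilobase was 2.23, 2.08 and 2.15 in the control rods and 1.30, 1.23 and 1.32 in the control retina. The Rodko rods gave 2.55, 2.20 and 2.51 and the Rodko retina 1.34, 1.13 and 1.28. The ratio was higher in each rod library than in any retina library. Without division by exon length, Prkaa1 reads outnumbered Prkaa2 reads in all 6 rod libraries (1.21 to 1.49) and fell short of them in all 6 retina libraries (0.661 to 0.785), so which form leads in retina rests on the lengths. The difference was 1.67-fold in controls and 1.94-fold in Rodko (p = 0.1 each, exact permutation), and over the 6 pairs it was 0.85 on the log2 scale, from 1.63-fold to 1.97-fold (6 of 6 pairs, exact sign-flip p = 0.03125, adjusted 0.03125). Neither ratio separated the genotypes. For Ckmt1 to Ckb the exact permutation p was 0.7 in rods and 0.6 in retina, and for Prkaa1 to Prkaa2 it was 0.2 and 0.7.

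**Figure D3:**
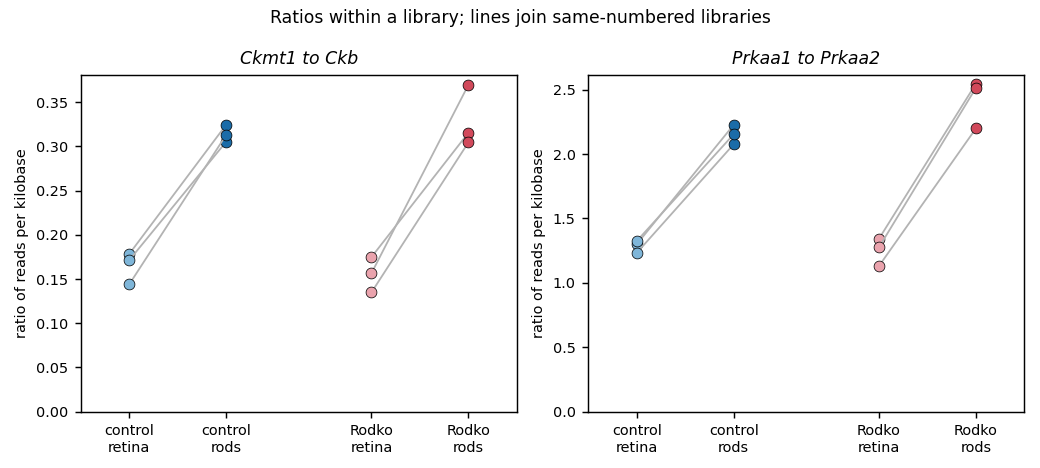
Ratio of reads per kilobase of Ckmt1 to Ckb (left) and of Prkaa1 to Prkaa2 (right) in each library, on linear axes from 0. Lines join the retina and rod libraries of the same genotype and number. All 6 lines rise from retina to rods in each panel, from between 0.135 and 0.178 to between 0.305 and 0.370 for the creatine kinases.

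Levels between genes were compared as scaled reads per kilobase of exon, with lengths from GENCODE vM21. In the control rods Ckb led at 7010 ± 882, followed by Ckmt1 at 2207 ± 327. Ak1 at 147 ± 26.5, Prkaa1 at 127 ± 8.39 and Slc6a8 at 98.6 ± 25.8 came next, and within these 3 the neighbours overlapped between libraries. Gamt at 59.9 ± 11.1 and Prkaa2 at 59.1 ± 2.49 overlapped each other, and Gatm closed the order at 0.984 ± 0.935. In the Rodko rods the same 2 creatine kinases led, at 6753 ± 1146 and 2206 ± 237, and the order of Ak1 and Prkaa1 and that of Gamt and Prkaa2 turned, within overlapping values. In the control retina no neighbours overlapped, and the order was Ckb at 4345 ± 473, Ckmt1 at 711 ± 59.2, Ak1 at 296 ± 14.9, Slc6a8 at 246 ± 12.3, Prkaa1 at 129 ± 3.68, Prkaa2 at 100.1 ± 4.88, Gamt at 47.3 ± 2.43 and Gatm at 8.95 ± 2.58. The order in the Rodko retina was the same, with Ak1 and Slc6a8 overlapping.

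Did any of these genes differ between Pkm2 Rodko and control mice? None of the 8 passed the test in rods or in retina. Over all genes 4 of 20658 passed in rods (0.0194%), all lower in Rodko, and 1 of 25590 in retina (0.00391%). The smallest limma adjusted p among the members was 0.932 in rods and 0.947 in retina. No member reached an unadjusted p under 0.05 either, where 4.77% of all genes did in rods and 4.18% in retina. The count of members past the threshold was also 0 with edgeR's quasi-likelihood test and with DESeq2.

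In rods, the creatine kinases differed by 0.01 on the log2 scale for Ckmt1 (95% interval −0.23 to 0.26) and by −0.05 for Ckb (−0.32 to 0.22). The transporter gene Slc6a8 differed by −0.03 (−0.39 to 0.33) and Gamt by −0.23 (−0.71 to 0.24). For Gatm the estimate was −0.51 (−2.18 to 1.17), and the 4 reads in Rodko against 8 in control rods gave a ratio of 0.463 (95% counting interval 0.102 to 1.73), so a change of Gatm was not detectable at this depth. Ak1 differed by −0.12 (−0.46 to 0.22), Prkaa2 by −0.06 (−0.39 to 0.28) and Prkaa1 by 0.11 (−0.23 to 0.45). All 8 members overlapped between control and Rodko rods, where 9.89% of genes did not overlap. Without the 2 deepest rod libraries the sign turned for Ckmt1 (−0.0679), Slc6a8 (0.26) and Prkaa1 (−0.114). Beside these values, 52 of 64 markers of other cell types had negative differences in rods (median −0.30), with none past the test, and their part in the values was not tested.

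In retina, Ckmt1 differed by 0.03 (95% interval −0.17 to 0.22), Ckb by 0.11 (−0.07 to 0.295) and Slc6a8 by 0.01 (−0.16 to 0.19). Ak1 differed by −0.08 (−0.27 to 0.11), Prkaa1 by −0.06 (−0.25 to 0.12) and Prkaa2 by −0.02 (−0.20 to 0.16). The enzymes of creatine synthesis were the 2 members whose libraries did not overlap, both lower in Rodko, where 4.76% of all genes were lower without overlap. Gatm differed by −0.52 (−1.19 to 0.16, unadjusted p = 0.122, limma adjusted p = 0.947), and its 62 reads against 99 gave a ratio of 0.662 (95% counting interval 0.474 to 0.919), an interval that leaves out the spread between libraries. Gamt differed by −0.20 (−0.60 to 0.19). In the same comparison 55 of 64 markers of other cell types had negative differences (median −0.11), with none past the test. List medians ran from −0.25 for microglia to 0.19 for pigment epithelium. The summed Müller glia markers were 72843 to 78522 scaled reads in Rodko and 78548 to 90487 in controls. Those of pigment epithelium were 2998 to 8714 in Rodko and 1541 to 10365 in controls. The part of any of these markers in these values was not tested.

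The genotype difference in rods minus that in retina was tested directly. It passed for none of the 8 members and for 0 of 25584 genes by limma, where 4.41% had an unadjusted p under 0.05, and DESeq2 called 1 gene, which was no member. The estimates ran from −0.15 for Ckb (95% interval −0.52 to 0.21) to 0.18 for Prkaa1 (−0.22 to 0.58).

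**Figure D4:**
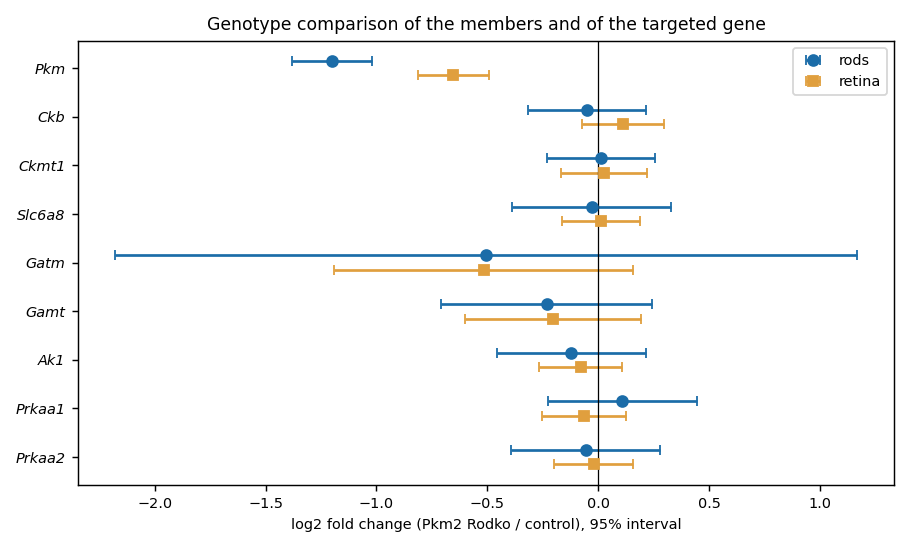
Log2 fold change between Pkm2 Rodko and control libraries, with 95% intervals from limma, in rods (circles) and retina (squares) for the targeted gene Pkm and the 8 members. Pkm stands at −1.20 in rods and −0.65 in retina, and the interval of every member spans 0, the widest being that of Gatm in rods (−2.18 to 1.17).

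The wider pathways were described by 7 lists of 63 genes, of which 60 were tested between rods and retina. In controls 23 were higher in rods and 19 lower, and in Rodko 27 and 22, beside the shares of all genes above. With total reads these counts were 10 and 30 in controls, where 8.43% of all genes were higher and 49.1% lower, so the directions below hold on that scale too only where said. No gene of the lists passed the genotype test, of 58 tested in rods and 60 in retina. An unadjusted p under 0.05 was seen for Ampd3 (−1.09), Nt5e (0.29) and Ak4 (0.36) in rods and for Camkk2 (0.25) and Ak4 (0.25) in retina, none with a limma adjusted p under 0.932. These were 5.17% of the list genes tested in rods and 3.33% in retina, near the 4.77% and 4.18% of all genes.

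Of the other creatine kinases, the muscle form Ckm was lower in control rods (log2 difference −1.66), on 39 reads in all, and the sarcomeric mitochondrial form Ckmt2 had 4 reads over the 12 libraries. Of the 9 adenylate kinases, Ak4 (0.62), a mitochondrial form, was higher in control rods with TMM and did not pass with total reads (0.0711). Ak5 (−3.60), a cytosolic form found mainly in brain, was lower with Ak1 on both scales. Several adenylate kinases have near-identical pseudogene copies, so their values are uncertain, and reads shared with such copies were not examined.

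Of the 7 AMPK subunit genes, 2 were higher in control rods and 3 lower, where 23.5% and 35.5% of all genes were. The β1 gene Prkab1 (1.62) and the γ1 gene Prkag1 (0.97) were higher in control rods, also with total reads (1.07 and 0.42). The γ2 gene Prkag2 (−1.07) and the γ3 gene Prkag3 (−3.76, on 251 reads in all) were lower along with Prkaa2, also with total reads. Prkab2, for β2, gave 0.04 (limma adjusted p = 0.769) with TMM and −0.506 (limma adjusted p = 0.00244) with total reads.

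Among 8 genes that act upstream of AMPK, 5 were higher in control rods and 0 lower. They were the kinase gene Stk11 (0.81), which encodes LKB1, its scaffold genes Cab39l (0.87) and Cab39 (0.57), and Camkk1 (0.96) and Camkk2 (0.55), the calcium-dependent kinases. With total reads 3 stayed higher (Camkk1, Cab39l and Stk11) and 3 others were lower. Of 16 AMPK substrates 8 were higher and 5 lower, led by Ppargc1a (0.91), Pfkfb2 (0.74) and Foxo3 (0.71) on one side and by Tbc1d4 (−2.92), Acacb (−2.83) and Tbc1d1 (−2.46) on the other. With total reads 1 stayed higher, the mitochondrial biogenesis coactivator gene Ppargc1a (0.36), and 7 were lower. Beside these counts, 23.5% of all genes were higher in control rods and 35.5% lower with TMM, and 8.43% and 49.1% with total reads.

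Of the 7 tested genes for AMP and adenosine enzymes, 4 were lower in control rods and 1 higher, where 35.5% and 23.5% of all genes were. The AMP deaminase genes Ampd3 (−2.92) and Ampd2 (−2.47), the nucleotidase gene Nt5c2 (−0.96) and the adenosine kinase gene Adk (−0.84) were lower, and Nt5e (1.54), which encodes the ecto-enzyme CD73 that turns AMP into adenosine, was higher, on both scales. Ampd1 had 0 reads and Nt5c1b had 4. Of the nucleoside diphosphate kinases, Nme5 (1.08), Nme7 (1.07) and Nme6 (0.54) were higher, the last with TMM but not with total reads, and Nme4 (−2.59, on 180 reads in all) and Nme1 (−0.94) were lower. Nme1 and Nme2 are related genes whose reads may be split, which was not tested, and Nme3 had 0 reads.

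**Figure D5:**
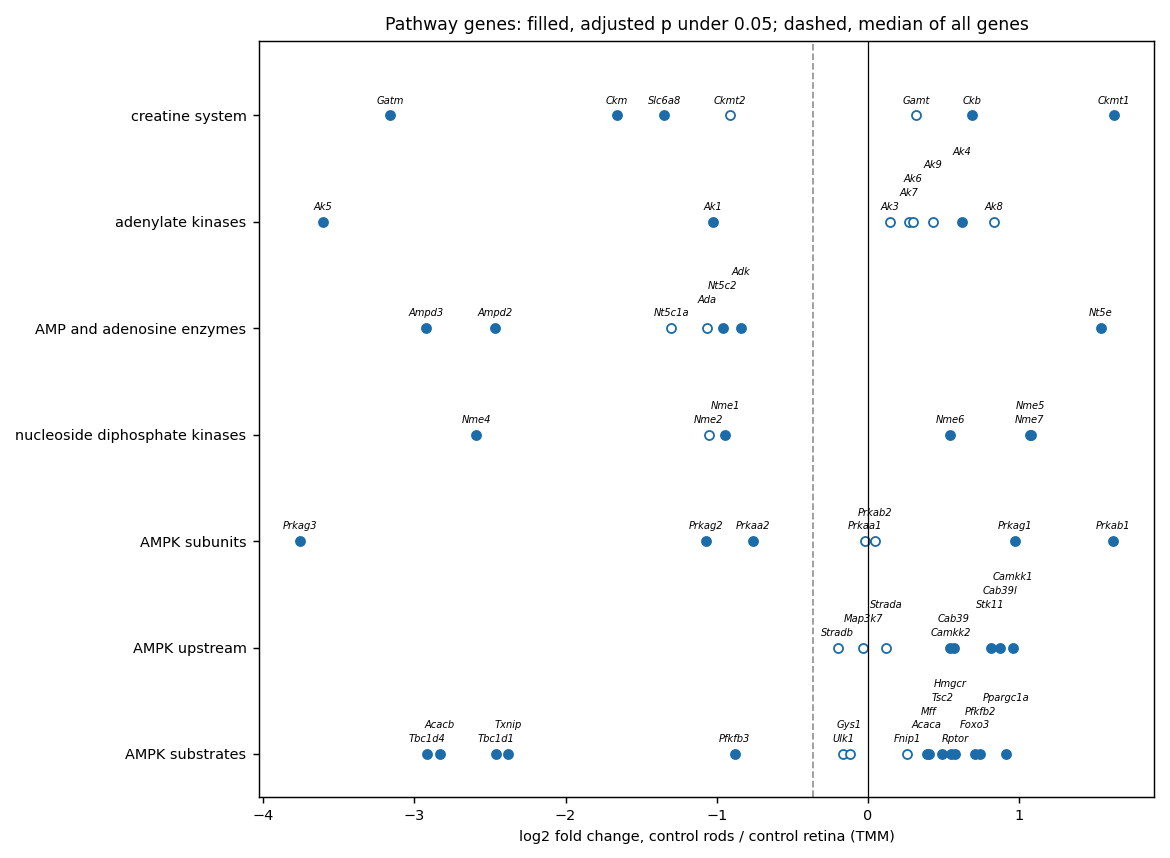
Log2 fold change between control rods and control retina (TMM) for the tested genes of the 7 lists, 1 row a list, with 1 gene left out. Filled points have a limma adjusted p under 0.05 and the dashed line is the median of all genes, −0.37. The AMPK subunits run from Prkag3 at −3.76 to Prkab1 at 1.62, and the 5 upstream genes past the test all lie to the right of 0.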

How the data were processed

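RNA was sequenced from 12 libraries, rods and whole retina from control and Pkm2 Rodko mice, 3 libraries in each group. The authors deposited a scaled signal per gene, namely each library's read counts over its own size factor, kept to 1 decimal, with rods and retina scaled apart. The submitters' processing notes name CASAVA 1.8.2, HISAT2, DESeq2, edgeR and GRCm39. Whole reads were recovered for 99.993% of positive values (tolerance 0.05). The members and gene lists were chosen with earlier results of these data known, and names followed a rule: the members, Pkm, the 3 highest and 3 lowest called genes of each list with those untested, those called by genotype, and, for each member, the 2 genes nearest in pattern. Genes named beyond it were chosen after their values were seen, and 2 genes that the rule names are not reported here.

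Genotype was tested within rods and within retina by limma 3.58.1 (variance trend) on log2(deposited value + 1) for genes with a group mean of at least 1, with Benjamini-Hochberg adjustment over all genes and a threshold of 0.05. Rods against retina and the difference of genotype effects used 1 limma fit of recovered reads scaled by TMM (edgeR 4.0.16) over 12 libraries. Alternatives included edgeR, DESeq2 1.42.0, other filters, a pseudocount of 0.1, total reads, a replicate block and leaving out each library. Same-numbered rod and retina libraries of a genotype deviated together (r from 0.294 to 0.586 in 6 pairs over 11137 genes), so their numbers were taken as pairing them. Rod and retina libraries of a genotype with different numbers had r from −0.516 to −0.0264. The labels state no pairing, and libraries of different genotypes and numbers in the same fraction also reached r = 0.394. The rod genotype comparison and the difference of effects were also run on simulated reads drawn from the control rod profile and scaled by TMM. That simulation gave every gene the same dispersion between libraries, which the real libraries need not share. It held no shift between rods and retina, and rods against retina was not simulated. No result here rests on it. Intervals on read counts cover counting error only. No library was a duplicate of another.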

Additional observations from a re-analysis of the deposited data

How the results depend on the processing

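The 6 members called between rods and retina in each genotype kept direction and call with edgeR (TMM or RLE factors), DESeq2, no filter, a pseudocount of 0.1, limma without its variance trend and without any 1 library, except that Gatm has no value where 10 reads were asked for in every library. The replicate block for paired libraries changed no member's call in any comparison, and in the genotype comparisons, where libraries of the 2 genotypes share only a number (r from −0.296 to 0.0707), it gave 0 members past the threshold, with 4 genes of all higher in rods in place of 0 and 0 lower in retina in place of 1. The common scale mattered most: with total reads and with the deposited values the members higher in rods went from 2 to 1 in both genotypes and those lower from 4 to 5, with Prkaa1 (limma adjusted p = 0.00155 and 0.00108 in controls, 0.0121 and 0.0113 in Rodko), and the sign turned for Gamt in controls (−0.222 and −0.266) and, in Rodko, for Ckb (−0.0518 and −0.0706), Gamt (−0.278 and −0.296) and Prkaa1 (−0.42 and −0.439). On those scales 2184 and 1942 genes of all were higher in control rods in place of 6001, and 2198 and 2076 in Rodko rods in place of 6108, while 12710 and 13140 were lower in control rods in place of 9083 and 12650 and 12810 in Rodko rods in place of 8992, since the scale itself moves.

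No member passed a genotype test under any alternative. Signs of small differences turned. In retina Slc6a8 gave −0.00359 in 1 fit of all libraries. For the genotype effect in rods minus that in retina, Gatm gave 0.00183 with total reads and 0.0111 with deposited values. Without the 2 deepest rod libraries, a choice made after seeing the data, Ckmt1 (−0.0679), Slc6a8 (0.26) and Prkaa1 (−0.114) turned in rods, Prkaa1 turned between Rodko rods and retina (−0.0314), and Gatm (0.0961), Gamt (0.0776), Slc6a8 (0.277) and Prkaa1 (−0.02) turned in the difference of effects. The cause was not tested.

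Leaving out 1 library at a time moved no member across the threshold in any comparison, where a group left with 2 libraries shares the pooled spread, and signs turned only for differences that did not pass. In rods the genotype differences ran from −0.163 to 0.0779 for Ckb, −0.113 to 0.0859 for Ckmt1, −0.181 to 0.175 for Slc6a8, −0.234 to 0.0179 for Ak1, −1.22 to −0.00215 for Gatm (without control replicates 3 and 2), −0.397 to −0.133 for Gamt (without control replicates 3 and 1), −0.0949 to 0.24 for Prkaa1 and −0.232 to 0.112 for Prkaa2. In retina they ran from −0.0314 to 0.109 for Ckmt1, −0.0383 to 0.0699 for Slc6a8, −0.647 to −0.302 for Gatm (without control replicates 2 and 1) and −0.0592 to 0.0148 for Prkaa2. Between rods and retina Prkaa1 ran from −0.0582 to 0.0127 in controls and −0.0314 to 0.27 in Rodko. The difference of effects ran from −0.12 to 0.0585 for Ckmt1, −0.202 to 0.181 for Slc6a8, −0.827 to 0.556 for Gatm, −0.183 to 0.0619 for Gamt, −0.135 to 0.0911 for Ak1, −0.0124 to 0.289 for Prkaa1 and −0.193 to 0.118 for Prkaa2.

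Over all genes, those lower in Rodko rods were 4, 7 with DESeq2, 17 in 1 fit of all libraries, 2 to 4 with 1 library left out and 0 without the 2 deepest rod libraries or without limma's variance trend, also added after seeing the data, those lower in Rodko retina 1, 0 with at least 10 reads and 0 to 2 with 1 library left out, and those lower in rods than retina 9083 in controls and 3614 with at least 10 reads in every library, where fewer genes were tested. Depth limits Gatm most, with 0 to 6 reads in a rod library.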

Other observations

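For each member, the genes with the most similar pattern over the 12 libraries were taken as those with the smallest root-mean-square difference in centred log2 scaled reads, among 12730 genes with a mean of at least 50 scaled reads. The points share libraries and depth and fall into rods and retina. Ckb lay nearest to Tmem14c (0.0547 on the log2 scale) and Ptov1 (0.0614). Ckmt1 lay nearest to Arl6 (0.0638), a gene of the ciliary BBSome pathway, and to Cabp4 (0.0809), a calcium-binding protein of photoreceptor synapses. Slc6a8 was matched by Vegfa (0.0894) and E130307A14Rik (0.0896), and Ak1 by Scamp3 (0.0878) and Rd3l (0.106). Prkaa1 was matched by Eif3a (0.0851), Prkaa2 by Clock (0.0801) and Gnl3l (0.0868), and Gamt by Nadsyn1 (0.0988) and Cdin1 (0.105). Gatm, with few reads in rods, had no close match, the nearest being Chrm2 (0.419) and Sema3a (0.423).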
